A study of Rattus norvegicus with 56 samples.

Results

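The activity-induced effector genes Arc, Homer1, Nptx2, Plk2, Dusp1, Btg2 and Ier2 were followed with 1 array per animal in 56 male Sprague Dawley rats of the Crl:OFA stock, from which the dorsal striatum was taken. Members were all probe sets whose single gene symbol in the array annotation equals 1 of these 7 names. This gave 10 of 31099 probe sets, for 5 of the 7 genes and of 14218 genes named in the annotation: 1 for Arc, 5 for Homer1, 1 for Plk2, 2 for Dusp1 and 1 for Ier2. No probe set in the annotation table used carries the symbol Nptx2 or Btg2 alone, and no values are given for them. A further probe set, shared between Hax1 and Homer1 (1399163_a_at), was not a member.

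In the lesion model, alpha-synuclein overexpressed from an AAV vector depletes nigral neurons on both sides, and sham rats received the same vector with GFP, so both models carry an injected vector. Starting 5 weeks after surgery, rats were injected daily for 3 weeks with saline or with L-dopa methyl ester at 50 mg/kg together with benserazide. Place conditioning followed, in sessions of 40 min, with saline or with pramipexole, an agonist of D2 and D3 receptors, at 2 mg/kg. Crossing model, treatment and conditioning gave 8 groups of 7 rats. All rats, saline-conditioned ones included, went through a test session of 20 min and were killed right after it, 24 or 48 hours after the last dose. Which of these intervals a rat had is not given per rat. The signals therefore describe the striatum after the test session, not after an acute dose.

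These genes are switched on by neuronal firing. Synaptic calcium and kinase signalling activate factors such as CREB and SRF, which transcribe immediate early genes within minutes, among them the transcription factor gene Egr1 (also called zif268) and effectors that act at the synapse or on the signalling itself. Arc encodes a postsynaptic protein that drives removal of AMPA receptors, and Homer1 encodes scaffolds of group I metabotropic glutamate receptors, with long forms made continuously and short forms (Homer1a and Ania-3) induced by activity. Plk2 encodes a kinase of synaptic scaling, Dusp1 a nuclear phosphatase that switches off MAP kinases, and Ier2 a nuclear immediate early protein. In the striatum, dopamine D1 receptor and glutamate input are the classical inducers of these genes.

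The 250 bases upstream of the annotated start are shown for the 4 measured members with an entry in the RefSeq promoter table (rat build GRCr8), because the cAMP response element, CRE, is a binding site of CREB. Capitals mark TGACG on either strand, the core of the CRE, and the full CRE is TGACGTCA. The array data were not aligned to this build.
Homer1, chr2:26278762-26279011, plus strand: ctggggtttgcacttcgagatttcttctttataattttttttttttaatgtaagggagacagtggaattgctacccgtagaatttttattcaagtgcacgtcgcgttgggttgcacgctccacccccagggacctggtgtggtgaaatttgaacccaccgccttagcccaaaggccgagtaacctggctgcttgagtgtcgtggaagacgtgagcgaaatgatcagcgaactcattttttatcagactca
Plk2, chr2:43702286-43702535, plus strand: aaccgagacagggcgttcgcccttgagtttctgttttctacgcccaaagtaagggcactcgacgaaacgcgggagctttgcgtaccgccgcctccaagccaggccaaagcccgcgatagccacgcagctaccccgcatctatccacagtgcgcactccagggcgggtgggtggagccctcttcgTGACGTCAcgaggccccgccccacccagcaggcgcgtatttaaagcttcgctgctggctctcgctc
Dusp1, chr10:17184603-17184852, plus strand: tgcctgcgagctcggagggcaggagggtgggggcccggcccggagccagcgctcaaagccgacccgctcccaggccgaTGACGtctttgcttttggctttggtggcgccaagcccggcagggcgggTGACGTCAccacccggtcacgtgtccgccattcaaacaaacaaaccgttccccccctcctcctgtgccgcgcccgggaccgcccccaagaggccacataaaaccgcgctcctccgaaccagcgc
Ier2, chr19:40399123-40399372, plus strand: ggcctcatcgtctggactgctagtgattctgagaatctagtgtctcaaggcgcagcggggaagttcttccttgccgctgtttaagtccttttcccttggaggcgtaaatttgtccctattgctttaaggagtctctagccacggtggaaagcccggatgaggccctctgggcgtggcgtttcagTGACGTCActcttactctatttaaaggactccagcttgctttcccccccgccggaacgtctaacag
The full CRE was found in the windows of Plk2, Dusp1 and Ier2, and no match was found in that of Homer1. It occurs in 1.59% of all 33469 rat promoter windows of the same length, searched on both strands, and the core TGACG, which every full CRE contains, in 18.2%. Its first base lies 66 bases before the start in Plk2 and in Ier2, and 124 bases before it in Dusp1. Dusp1 has a further core 172 bases upstream. The EGR motif GCGNGGGCG, found in 4.29% of windows, and the CArG box of SRF, found in 501 windows, matched in none of the 4. A match is a sequence feature and not a measured binding site.

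Signals were MAS5 values on the log2 scale, scaled by the authors to a common level per array, and medians of the arrays lay between 5.62 and 5.82. Medium spiny neuron markers, which define striatal tissue, were measured with 13 of 13 genes above the filter on low signals. Cerebral cortex markers were above it for 11 of 13, and the cortical score (mean of signals centred over the arrays) ranged from -0.96 to 0.59 between rats. Rat 2, lesioned and given both drugs, had a microglia score of 2.85, against at most 0.55 in the others. Arrays 1 to 37 and 38 to 56 differ by a step seen in the values and not named in the labels. The lower set holds every lesioned rat and the sham group with L-dopa and pramipexole, the higher set every saline-treated sham rat, and the sham group with L-dopa alone is split 2 and 5. The pramipexole comparisons in saline-treated rats and in lesioned rats therefore lie inside 1 set each, and lesion in saline-treated rats cannot be told apart from it.

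**Figure D1:**
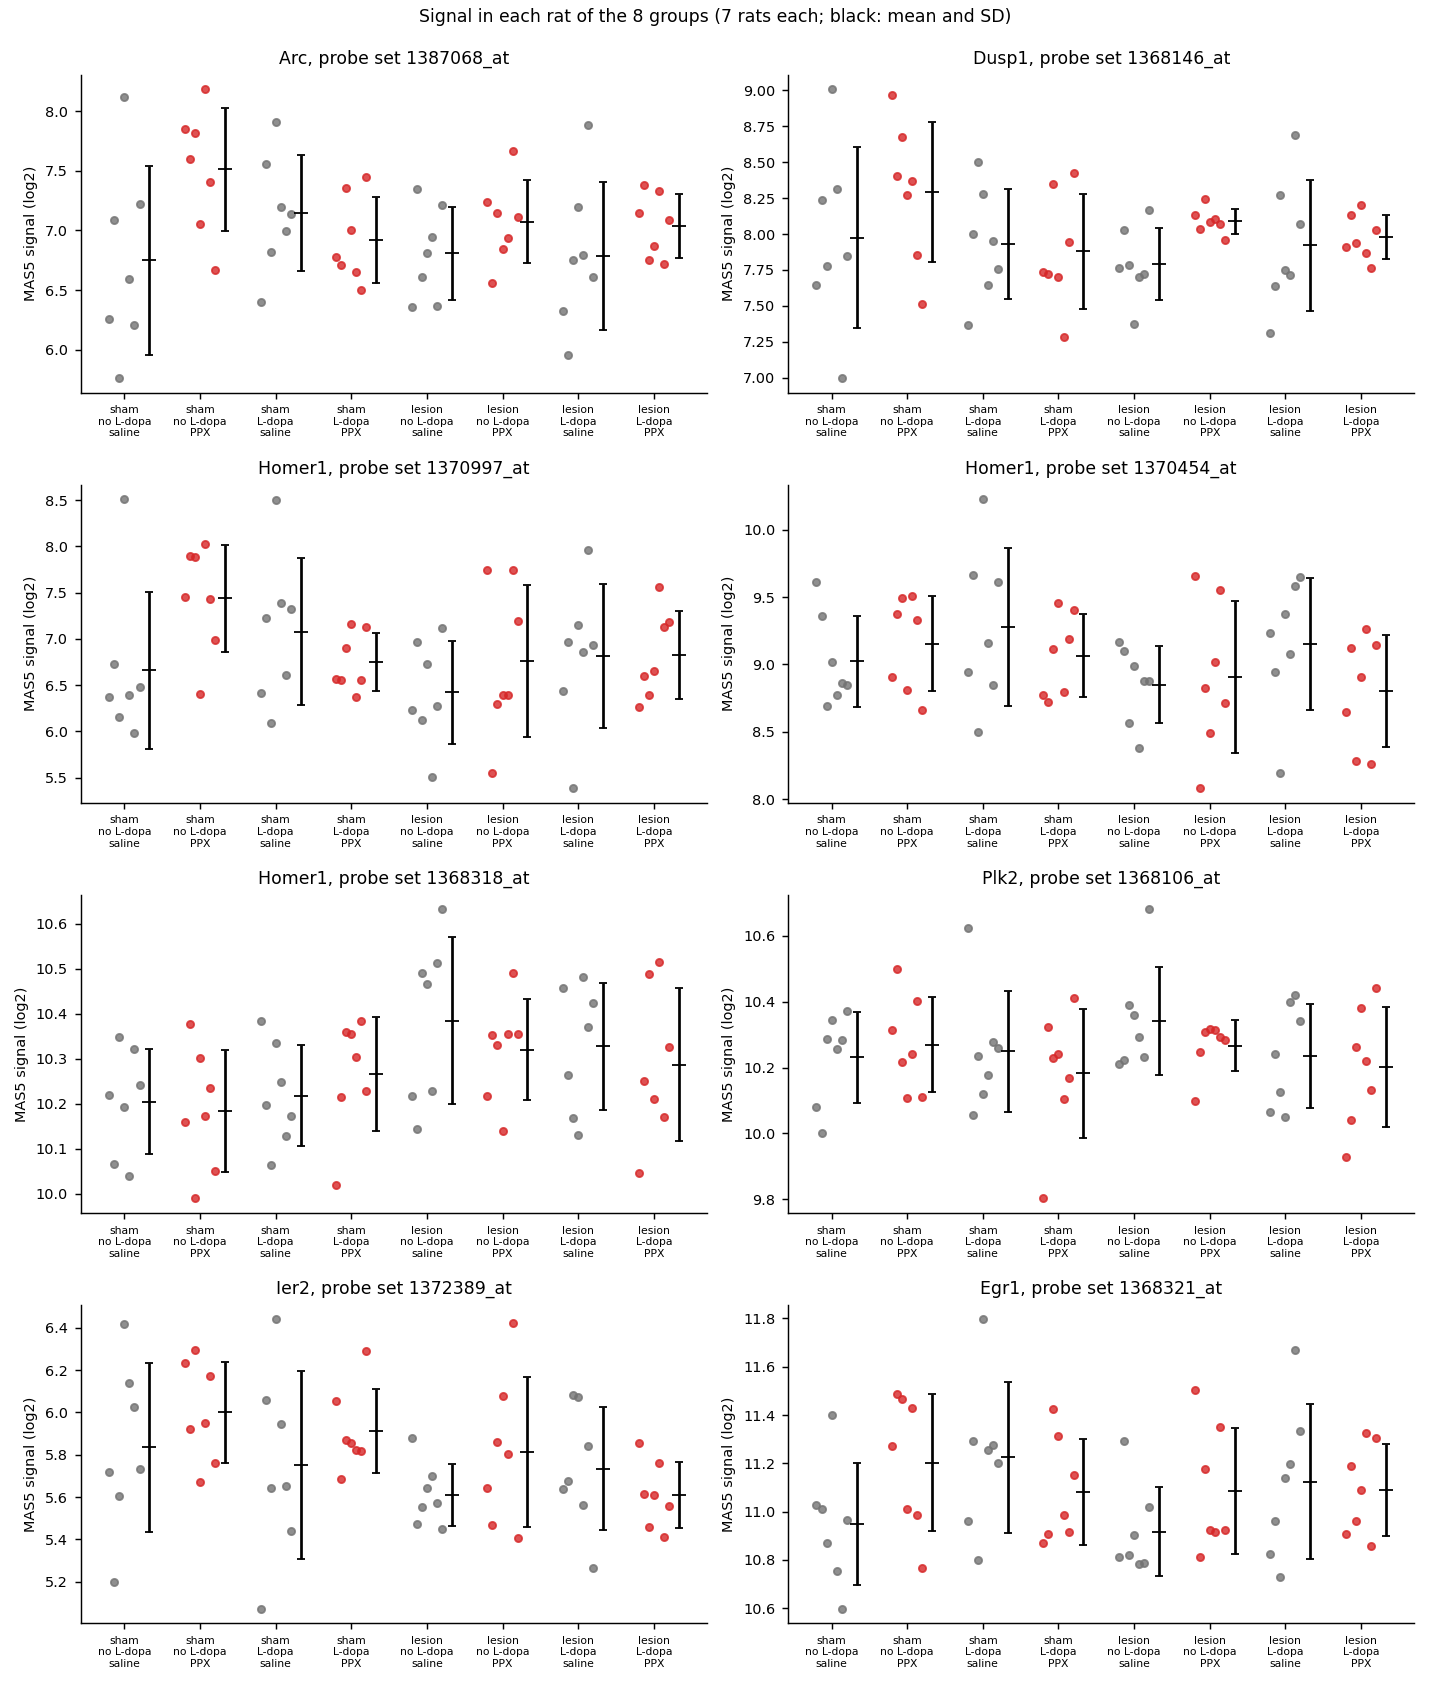
MAS5 log2 signals of Arc, Dusp1, 3 Homer1 probe sets, Plk2, Ier2 and Egr1 in each rat (points, red for pramipexole conditioning and grey for saline), with mean and SD (black) for the 8 groups of 7 rats. Arc and Homer1 1370997_at spread more widely than Homer1 1368318_at and Plk2, and Dusp1 does so in most groups but has an SD of only 0.09 in lesioned rats given pramipexole alone.

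The members split first by how much rats of 1 group differed. The SD within groups was 0.50 for Arc, 0.67 and 0.43 for Homer1 probe sets 1370997_at and 1370454_at, and 0.39 for Dusp1 1368146_at. These exceed the SD of 98.8%, 99.6%, 97.8% and 96.8% of all tested probe sets, whose median was 0.18. The other Homer1 probe sets had SDs of 0.14, 0.16 and 0.20, and Plk2 0.16, near that median. Ier2 lay between, with an SD of 0.30, and Egr1 had 0.26. Mean signals over the 56 rats were 7.00 for Arc, 10.25 for Plk2, 7.98 for Dusp1 1368146_at and 5.78 for Ier2, and from 6.84 to 10.27 for the 5 Homer1 probe sets. MAS5 signals of different probe sets are not on a common scale, so these means do not rank the genes. The second Dusp1 probe set, 1368147_at, averaged 4.64, below the filter on low signals (4.99), so that 9 of the 10 were tested.

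Arc was highest in sham rats conditioned with pramipexole without L-dopa, with a lowest, median and highest log2 signal of 6.67, 7.60 and 8.19. It was lowest by mean in sham rats given saline throughout, with 5.76, 6.59 and 8.12. The pramipexole rats were mostly the higher ones, but the groups overlapped: the 2 lowest pramipexole rats lay below 3 of the saline rats, and rat 53, given saline throughout, had an Arc signal near the highest. With L-dopa, sham rats had 6.50, 6.78 and 7.45 with pramipexole and 6.40, 7.14 and 7.90 without. Lesioned rats without L-dopa had 6.56, 7.11 and 7.67 with pramipexole and 6.36, 6.81 and 7.35 without. With L-dopa, lesioned rats had 6.71, 7.08 and 7.38 with pramipexole and 5.96, 6.75 and 7.89 without. In the order of the group means, neighbours were 0.02 to 0.37 apart while the SDs ran from 0.27 to 0.79. Sorting by mean makes such gaps small, so they do not show whether groups differ. The highest and lowest group means were 7.51 (SD 0.52) and 6.75 (SD 0.79).

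Pramipexole was compared with saline conditioning in 14 against 14 rats treated without L-dopa, sham and lesioned rats weighted equally. Arc, Dusp1 and Homer1 1370997_at were higher by more than 0.3 on average, but limma called 0 of the 9 tested members at a Benjamini-Hochberg adjusted p under 0.05, where it called 0% of all 18625 probe sets. At an unadjusted p under 0.05 there were 3 of 9, all higher, against 7.41% of all probe sets in either direction and 4.18% that were higher. Arc differed by 0.51 ± 0.18 (SE; limma adjusted p = 0.555), with 12 of 14 rats above the mean of the 14 saline-conditioned rats. Such counts of rats use the mean of all rats on the other side of a comparison. Homer1 1370997_at differed by 0.56 ± 0.25 (limma adjusted p = 0.642, 9 of 14 rats). Dusp1 differed by 0.31 ± 0.14 (limma adjusted p = 0.654, 12 of 14 rats), and Ier2 by 0.18 ± 0.11 (limma adjusted p = 0.744). Egr1 differed by 0.21 ± 0.10 (limma adjusted p = 0.642).

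The remaining Homer1 probe sets and Plk2 lay close to 0, with narrow intervals. Homer1 1368318_at differed by -0.04 (95% interval -0.15 to 0.06) and Homer1 1370656_a_at by 0.01 (-0.11 to 0.14). That value joins opposite signs, 0.18 ± 0.09 in sham rats (limma adjusted p = 0.780, 6 of 7 rats) and -0.15 ± 0.09 in lesioned rats (limma adjusted p = 0.725, 2 of 7 rats). Homer1 1368319_a_at differed by -0.02 (-0.17 to 0.13) and Plk2 by -0.02 (-0.14 to 0.10). Homer1 1370454_at differed by 0.09, with a wide interval from -0.22 to 0.41. So the 2 Homer1 probe sets that vary between rats and the 3 that do not gave different precision for the same gene.

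With L-dopa, the Arc, Dusp1 and Ier2 differences between pramipexole and saline conditioning averaged near 0 over lesioned and sham rats (14 against 14). limma called 0 of 9 members and 0.0322% of all probe sets, and 0 of 9 members had an unadjusted p under 0.05 against 5.99% of all. Arc differed by 0.01 ± 0.18, Dusp1 by 0.00 ± 0.14 and Ier2 by 0.02 ± 0.11. These values join opposite signs. In lesioned and sham rats Arc differed by 0.25 ± 0.26 and -0.22 ± 0.26, Dusp1 by 0.06 ± 0.20 and -0.05 ± 0.20, and Ier2 by -0.12 ± 0.16 and 0.16 ± 0.16. The sham comparison spans both array sets. With the set as a block, its values were 0.20 ± 0.31 for Dusp1 and 0.35 ± 0.23 for Ier2. Homer1 1370454_at differed by -0.28 ± 0.16 (limma adjusted p = 0.858) and Homer1 1370997_at by -0.16 ± 0.25. Egr1 differed by -0.09 ± 0.10.

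Whether the pramipexole difference depended on L-dopa was tested as an interaction. limma called 0 of 9 members and 0% of all probe sets, with 1 of 9 members at an unadjusted p under 0.05 against 8.10% of all. The Arc difference was smaller with L-dopa by 0.50 (estimate -0.50 ± 0.26, 95% interval -1.02 to 0.02, limma adjusted p = 0.637). This averages -0.99 ± 0.37 in sham rats, where the contrast spans both array sets, and -0.01 ± 0.37 in lesioned rats. The Homer1 1370997_at difference was smaller with L-dopa by 0.72 (estimate -0.72 ± 0.35, limma adjusted p = 0.596), from -1.11 ± 0.49 in sham and -0.32 ± 0.49 in lesioned rats. For Egr1 the estimate was -0.30 ± 0.13 (limma adjusted p = 0.562), and for Plk2 -0.03 (95% interval -0.20 to 0.14). No dependence on L-dopa therefore passed the test across all probe sets.

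**Figure D2:**
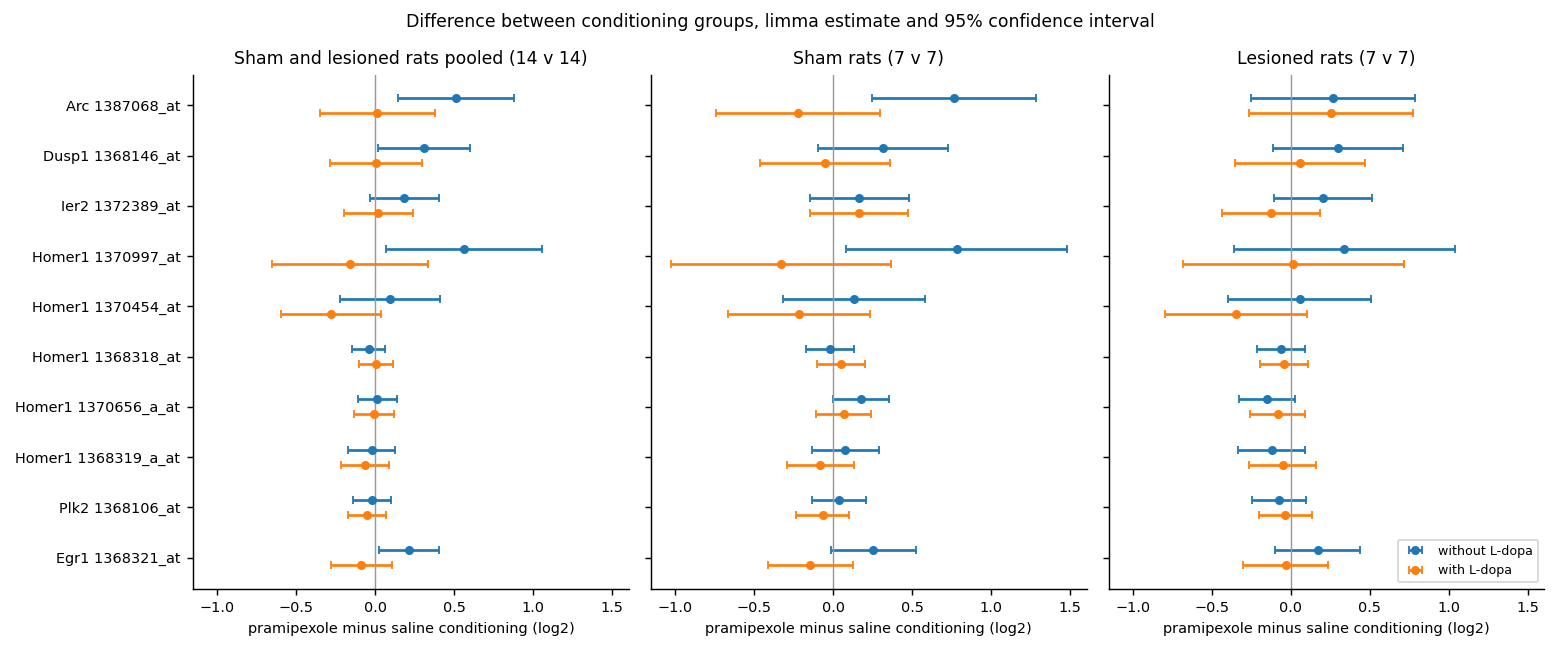
Pramipexole minus saline conditioning (log2 scale, limma estimate as point and 95% confidence interval as bar) for the 9 tested member probe sets and Egr1, without L-dopa (blue) and with it (orange). The left panel pools sham and lesioned rats, and the others show them apart. The Arc difference of 0.76 in sham rats without L-dopa is the largest Arc value, and the intervals of Plk2 and 3 of the Homer1 probe sets are the narrowest.

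Without L-dopa the Arc and Homer1 1370997_at differences were larger on average in sham rats (7 against 7, all within the higher array set) than in lesioned rats, and this gap between the models was not tested. limma called 0 of 9 members and 0% of all probe sets there. At an unadjusted p under 0.05 there were 3 of 9 members, Arc and Homer1 1370997_at and 1370656_a_at, all higher, against 6.38% of all and 3.53% that were higher. Arc differed by 0.76 ± 0.26 (limma adjusted p = 0.630), with 6 of 7 rats above the saline-conditioned mean. Homer1 1370997_at gave lowest, median and highest signals of 6.41, 7.45 and 8.03 with pramipexole and 5.98, 6.39 and 8.51 without. In the saline group 6 rats lay at or below 6.73 and rat 53 at 8.51, above every pramipexole rat. The groups also overlap without it, since the lowest pramipexole rat lay below rats 51 and 56 of the saline group. The difference was 0.78 ± 0.35 (limma adjusted p = 0.751), and 1.09 without rat 53. For Arc it was 0.99 without rat 53. Neither was called in that fit.

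Dusp1 1368146_at in the same rats ran from 7.52 over a median of 8.37 to 8.97 with pramipexole, and from 7.00 over 7.85 to 9.01 without, with almost complete overlap. Its second probe set, 1368147_at, ran from 4.59 over 5.33 to 5.93 with pramipexole and from 4.32 over 4.56 to 4.86 without. There the 2 groups overlap little. The difference of 0.67 ± 0.21 in a limma fit without the filter was not called (adjusted p = 0.649). The signal is low, and the 2 Dusp1 probe sets were only weakly related between rats (Pearson r = 0.168, permutation p = 0.214).

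In sham rats the interaction with L-dopa was -0.99 ± 0.37 for Arc (limma adjusted p = 0.576) and -1.11 ± 0.49 for Homer1 1370997_at (limma adjusted p = 0.690). limma called 0 of 9 members and 0% of all probe sets for it, and 2 of 9 members against 6.75% had an unadjusted p under 0.05. This contrast spans both array sets. Inside the lower set, where 7 pramipexole rats could be set against 2 saline-conditioned rats, the Arc difference with L-dopa was -0.06 ± 0.33 in place of -0.22. In sham rats with L-dopa limma called 0 of 9 members and 0.043% of all probe sets, and 0 of 9 against 5.99% had an unadjusted p under 0.05.

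In lesioned rats, Arc with pramipexole was 0.26 ± 0.26 higher without L-dopa and 0.25 ± 0.26 higher with it (7 against 7 each). limma called 0 of 9 members in both comparisons, where it called 0% and 0.0161% of all probe sets, and 0 of 9 had an unadjusted p under 0.05 (7.15% and 5.89% of all). Dusp1 without L-dopa was 0.30 ± 0.20 higher, and 7 of 7 pramipexole rats lay above the mean of the saline group. Its spread was small with pramipexole, from 7.96 over 8.08 to 8.24, against 7.37 over 7.76 to 8.17 without. These groups still overlap, and the limma adjusted p was 0.756. For the interaction with L-dopa in lesioned rats limma called 0 of 9 members and 0% of all probe sets, and 0 of 9 against 7.01% had an unadjusted p under 0.05.

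Over all 28 against 28 rats, pramipexole conditioning gave an Arc difference of 0.26 ± 0.13 (limma adjusted p = 0.960). limma called 0 of 9 members against 0.0376% of all probe sets, and 1 of 9 had an unadjusted p under 0.05 against 5.08%.

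Markers of other tissue and cell types were compared in the same rats. Without L-dopa, 10 of 11 cortical markers were higher with pramipexole (median 0.15), and with L-dopa 2 of 11 (median -0.10). Of all probe sets, 53.8% and 48.7% were higher in these comparisons. In sham rats without L-dopa 6 of 11 were higher (median 0.01), against 51.2% of all probe sets. The score ran from -0.84 to 0.36 with pramipexole and from -0.71 to 0.21 without. In lesioned rats without L-dopa 11 of 11 were higher (median 0.28), against 53.4% of all, and the score ran from -0.79 to 0.55 and from -0.96 to 0.57. In lesioned rats with L-dopa 1 of 11 was higher (median -0.20), against 51% of all. Of 7 oligodendrocyte markers 1 was higher without L-dopa (median -0.12), and 3 were lower at an unadjusted p under 0.05. Of 7 astrocyte markers 2 were higher (median -0.01), and 3 were lower at an unadjusted p under 0.05. Of all probe sets, 7.41% had an unadjusted p under 0.05 in either direction in that comparison. Those that were higher made up 4.18% of all, so the share that was lower is smaller than that. In the sham rats without L-dopa 1 of 7 was higher in each list (medians -0.13 and -0.08). With pramipexole, the 1 blood cell gene tested was called lower in L-dopa rats (-0.75), where limma called 0.0322% of all probe sets. It was not called without L-dopa (-0.27). In lesioned rats with L-dopa, 8 of 8 microglia markers were higher (median 0.48), against 51% of all. Rat 2, with a microglia score of 2.85, is in the pramipexole group there. The part of the oligodendrocyte, astrocyte, blood cell and microglia markers in the member differences was not tested. With the cortical score as a covariate, Arc differed by 0.49 ± 0.19 over the 28 rats without L-dopa and by 0.75 ± 0.26 in the sham rats among them. Without the covariate these values were 0.51 ± 0.18 and 0.76 ± 0.26. The part of cortical tissue in the Arc differences was not tested. In tissue samples, fewer cells of a type and less RNA per cell cannot be told apart.

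Among the other immediate early transcription factor genes, 18 of 21 tested were higher with pramipexole without L-dopa, with a median of 0.21 against 0.01 over all tested probe sets, and 53.8% of all were higher. With L-dopa 5 of 21 were higher (median -0.08), against 48.7% of all. limma called 0 of the 21 in either comparison. Without L-dopa 9 of the 21 had an unadjusted p under 0.05, all higher, against 4.18% of all probe sets that were higher. They were led by the orphan nuclear receptor gene Nr4a1 (0.58 ± 0.14, limma adjusted p = 0.415) and Fosb (0.34 ± 0.11, limma adjusted p = 0.555). Of the other activity-induced effector genes, 15 of 18 were higher without L-dopa (median 0.05) and 8 of 18 with it, and limma called 0. Rgs2, a regulator of G protein signalling, differed by 0.18 ± 0.08 and Inhba, an activin subunit gene, by -0.17 ± 0.09. Of the partners and relatives of the members, 16 of 21 and 7 of 21 were higher, again with 0 calls. Among them Plk4, a centriole kinase gene, differed by -0.33 ± 0.08 (limma adjusted p = 0.415) and Dusp6, an ERK phosphatase gene, by 0.18 ± 0.09. All these comparisons use the same rats, and the 2 comparisons with and without L-dopa share none.

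Lesion and L-dopa were compared likewise. Over all 28 lesioned against 28 sham rats, limma called 0 of 9 members and 5.07% of all probe sets, and 2 of 9 had an unadjusted p under 0.05 against 19.7%. Homer1 1368318_at was 0.11 ± 0.04 higher (limma adjusted p = 0.070, 19 of 28 rats) and Ier2 differed by -0.18 ± 0.08 (limma adjusted p = 0.163). With the array set as a block these values were 0.04 and -0.01. Without either drug, Homer1 1370656_a_at ran from 9.61 over 9.76 to 10.02 in lesioned and from 9.21 over 9.46 to 9.71 in sham rats. All 7 lesioned rats lay above the sham mean, and the groups overlap in a small range. The difference was 0.31 ± 0.09 (limma adjusted p = 0.058). In that comparison limma called 0 of 9 members and 1.07% of all probe sets, and 3 of 9 members, all Homer1 probe sets, had an unadjusted p under 0.05 against 13.7%. Because lesion and array set coincide in these rats they cannot be told apart. With the array set as a block, estimated through the split group, the difference was 0.26 ± 0.16 (limma adjusted p = 0.997). A sign of RNA quality, the excess of 3' over 5' signal in 3 control genes, averaged 0.81 in lesioned and 1.01 in sham rats here. With it as a covariate the difference was 0.23 ± 0.10 (limma adjusted p = 0.470).

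In rats given L-dopa as well as pramipexole, which share an array set, limma called 0 of 9 members for the lesion and 0% of all probe sets, with 0 of 9 at an unadjusted p under 0.05 against 6.83%. L-dopa over 28 against 28 rats gave 0 of 9 calls by limma against 0.215% of all probe sets, and 1 of 9 with an unadjusted p under 0.05 against 10.9%. This was Homer1 1370656_a_at, at -0.12 ± 0.04 (limma adjusted p = 0.293). In sham rats conditioned with pramipexole, Arc differed with L-dopa by -0.59 ± 0.26 (limma adjusted p = 0.692), and 0 of 7 L-dopa rats lay above the mean without it. There limma called 0 of 9 members and 0.166% of all probe sets, and 2 of 9 against 6.58% had an unadjusted p under 0.05. These 2 groups lie in different array sets, and with the set as a block the Arc value was -0.36 ± 0.48.

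Calls were likewise 0 of 9 in the remaining comparisons. For L-dopa in lesioned rats, limma called 0.0161% of all probe sets with saline conditioning and 0% with pramipexole, and 1 of 9 members against 12.9% and 0 of 9 against 5.14% had an unadjusted p under 0.05. The 1 was Homer1 1370656_a_at, at -0.23 ± 0.09 (limma adjusted p = 0.252), with 0 of 7 L-dopa rats above the mean without it, all within the lower array set. For L-dopa in saline-conditioned sham rats limma called 0.00537% of all, and 0 of 9 members against 7.83% had an unadjusted p under 0.05. For the lesion, limma called 0.183% in rats given L-dopa alone and 0.789% in rats given pramipexole alone, with 0 of 9 members against 8.60% and 11.7% at an unadjusted p under 0.05.

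Rats were next compared with each other inside their groups, with Egr1 (probe set 1368321_at) as the reference. The log2 signals of Arc, of Dusp1 1368146_at and of Homer1 1370997_at and 1370454_at rose with Egr1 from rat to rat within groups. In a limma fit of all probe sets with the 8 group means and the Egr1 signal as a covariate, 4 of 9 members were called at an adjusted p under 0.05, against 0.473% of all 18624 probe sets, and all 4 had a positive slope. Called positive slopes were found for 64 probe sets, 0.344% of all.

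Homer1 1370997_at rose by 2.11 ± 0.22 (SE) log2 units per unit of Egr1 (limma adjusted p = 1.5e-09), ranking 4 of all probe sets by p. Arc rose by 1.46 ± 0.18 per unit (limma adjusted p = 1.8e-07, rank 10) and Homer1 1370454_at by 1.24 ± 0.16 (limma adjusted p = 6.3e-07, rank 11). Dusp1 rose by 0.81 ± 0.18 (limma adjusted p = 0.022, rank 54). The remaining Homer1 probe sets, Plk2 and Ier2 had slopes from 0.10 to 0.31 that were not called. The calls of Arc and of both Homer1 probe sets held in 56 of 56 fits that left out 1 rat, and Dusp1 was called in 52 of 56. It was not called without rat 13, 49, 53 or 55 (limma adjusted p = 0.099, 0.071, 0.103 and 0.061).

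As a correlation over 56 rats, after each group mean was removed, Homer1 1370997_at had a Pearson r with Egr1 of 0.810 and a Spearman rho of 0.759. Arc had 0.756 and 0.740, and Homer1 1370454_at 0.741 and 0.727. For these 3, the permutation p of both measures was 1e-05, the smallest that 100000 permutations within groups can give (3.3e-05 for r over the 10 relations computed). Dusp1 1368146_at had 0.526 and 0.483, with permutation p of 0.00019 and 0.00073 (4.8e-04 for r and 0.0018 for rho over 10). Without rats 13 and 39, the farthest in Egr1, r was 0.765 for Homer1 1370997_at, 0.702 for both Arc and Homer1 1370454_at, and 0.456 for Dusp1. These 4 relations were also found without those 2 rats.

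Weaker relations lay near the threshold and fell below it without these rats. Homer1 1370656_a_at had r = 0.321 (rho 0.346, permutation p 0.021 and 0.014), and 0.255 without the 2 rats. The low Dusp1 probe set 1368147_at had r = 0.331 (rho 0.263, permutation p 0.024 and 0.073) and 0.258 without them. Ier2 (r = 0.269, permutation p = 0.084), Homer1 1368319_a_at (0.245, 0.109), Homer1 1368318_at (0.181, 0.192) and Plk2 (0.163, 0.253) did not pass.

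**Figure D3:**
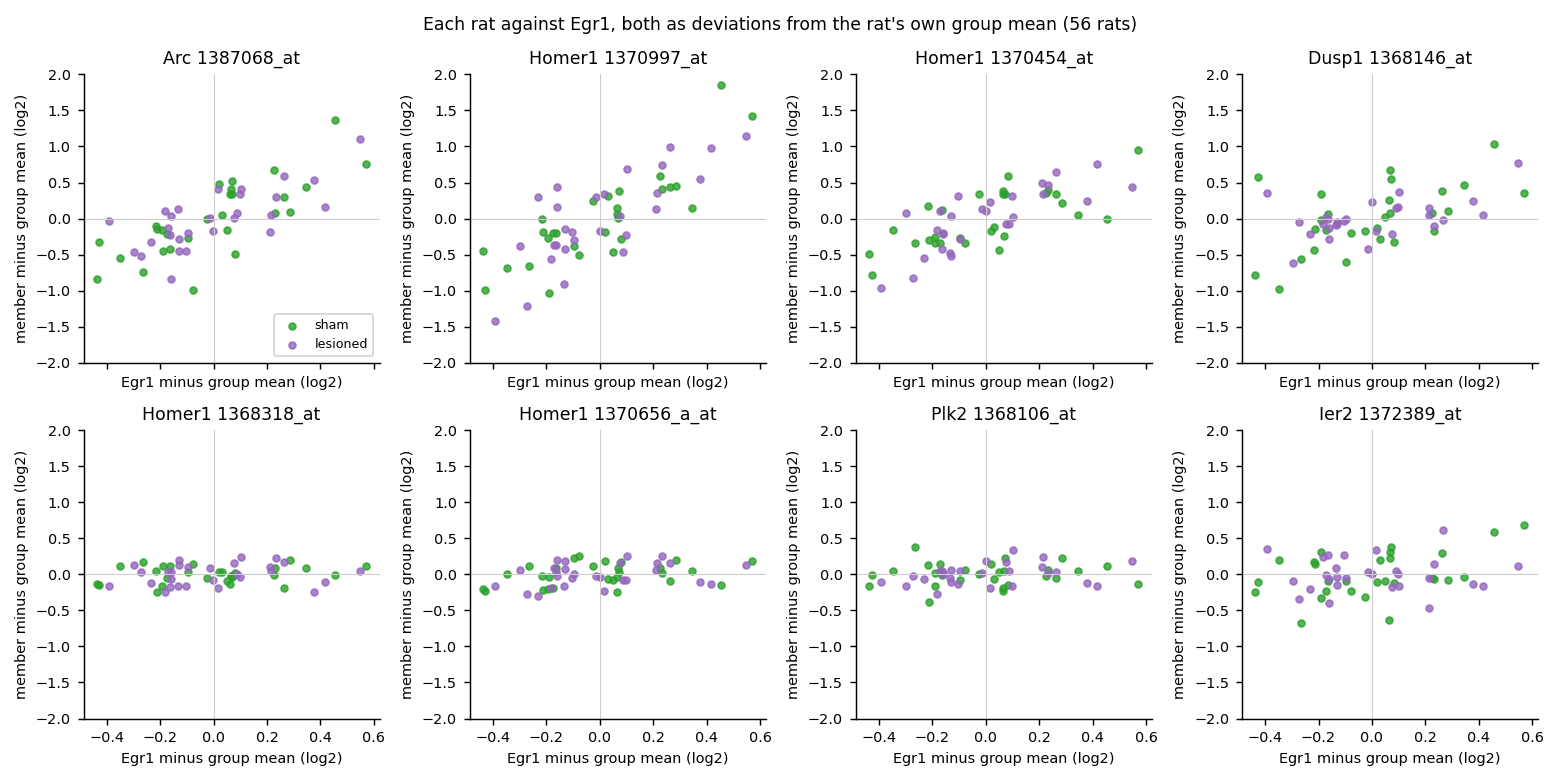
Log2 signals of 8 member probe sets against Egr1, each as the deviation of a rat from its own group mean (56 rats, green sham and purple lesioned). Arc, Homer1 1370997_at and 1370454_at and Dusp1 rise with Egr1, while Homer1 1368318_at and 1370656_a_at and Plk2 have slopes of at most 0.20 per unit. The highest points for Homer1 1370997_at and Arc belong to rat 53.

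The r of Egr1 with Arc, Dusp1 1368146_at and Homer1 1370997_at and 1370454_at was positive in each of the 8 groups of 7 rats. For Arc, r with Egr1 ran from 0.677 to 0.867 and was positive in 8 of 8 groups. Homer1 1370997_at ran from 0.589 to 0.933, Homer1 1370454_at from 0.378 to 0.924 and Dusp1 1368146_at from 0.143 to 0.788, each positive in 8 of 8. For Plk2 the groups ran from -0.599 to 0.746, and Plk2, Ier2, Dusp1 1368147_at and the other Homer1 probe sets were positive in 6 of 8 each. Without the 2 rats of each group farthest in Egr1, Arc ran from 0.286 to 0.895 and Homer1 1370997_at from 0.240 to 0.976. Homer1 1370454_at then ran from 0.367 to 0.898, and Dusp1 1368146_at from -0.862 to 0.942, so its sign did not hold in every group. By exact permutation over 5040 pairings, 0 of the 80 single-group relations passed after Benjamini-Hochberg adjustment over the 80 (smallest adjusted p = 0.133), while 17 had an unadjusted p under 0.05.

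The same rat was the highest in its group for Egr1 and for Arc in 4 of 8 groups, and the lowest in 3. For Homer1 1370997_at this was the case in 4 and 5 groups, for both Homer1 1370454_at and 1370656_a_at in 3 and 6, and for Plk2 in 2 and 1.

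**Figure D4:**
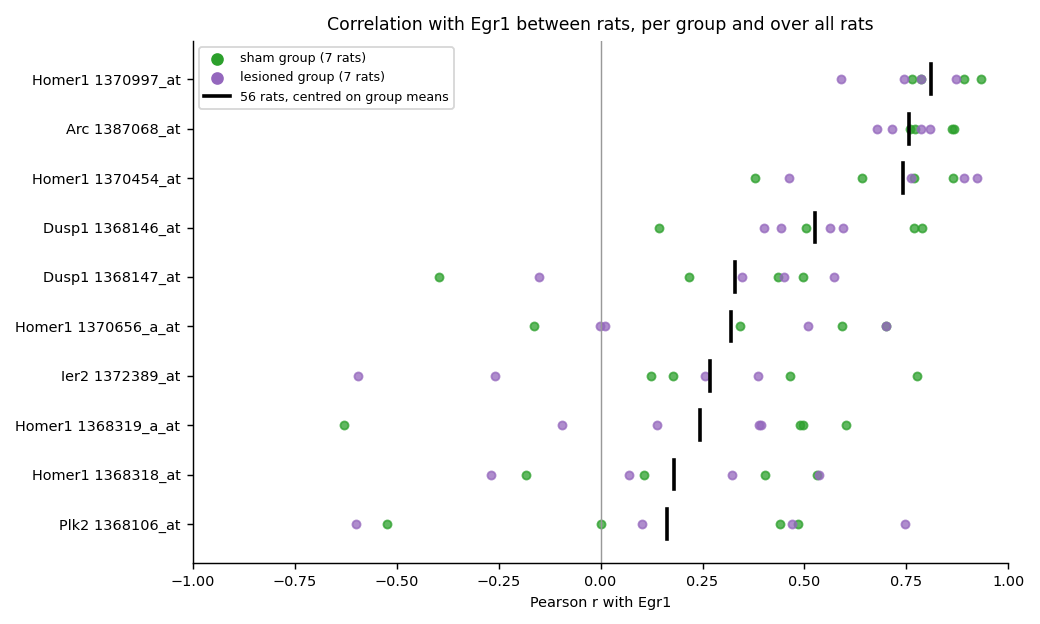
Pearson r with Egr1 for the 10 member probe sets, in each group of 7 rats (points, green for the 4 sham and purple for the 4 lesioned groups) and over all 56 rats centred on group means (black bars). Homer1 1370997_at, Arc, Homer1 1370454_at and Dusp1 1368146_at lie above 0 in all groups, and the rest cross it.

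RNA quality, dissection and array set were set beside these relations. Arc's slope on Egr1 was 1.46 with the 3' minus 5' signal, 1.49 with the cortical score, 1.46 with the medium spiny neuron score, 1.47 with the endothelial score and 1.46 with the array set as a further covariate. The same 4 members were called in each of these 5 fits. Egr1 itself had a Spearman rho of -0.338 with the 3' minus 5' signal (permutation p = 0.019, Pearson r -0.154 with p = 0.315; 66 such relations were computed, and the adjusted p for r was 0.694).

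Other immediate early transcription factor genes rose with Egr1 in the same fit: limma called 9 of 20 with a positive slope and 0 with a negative one, led by Egr2 (2.07 ± 0.15 per unit), Nr4a3 (1.59 ± 0.13), Fos (1.98 ± 0.23), Ier5 (0.86 ± 0.11) and Nr4a1 (1.10 ± 0.15). Of the other effector genes 2 of 18 were called, Ptgs2 (0.81 ± 0.10), which encodes cyclooxygenase-2, and Tiparp (0.55 ± 0.10). Of the partners and relatives 3 of 21 were called: Ier5, Dusp6 (0.63 ± 0.09) and Dusp14 (0.57 ± 0.09). In the 8 cell type lists limma called 0 genes. The 11 cortical markers had a median slope of 0.34, equal to that of the immediate early transcription factor genes to 2 decimals, against -0.01 over all probe sets, and the 13 medium spiny neuron markers -0.04.

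The 5 Homer1 probe sets fell into 2 patterns. Probe sets 1370997_at and 1370454_at rose and fell together (r = 0.713), and with Arc (0.703 and 0.485). Probe sets 1368318_at, 1370656_a_at and 1368319_a_at went with each other (r from 0.486 to 0.746) and not with Arc (-0.05, 0.06 and 0.00). The patterns were not fully apart, with r = 0.358 between 1370454_at and 1370656_a_at. In the 6 pairs, a signal of the first pattern minus one of the second had an r with Egr1 from 0.660 to 0.782. This is a description with no test, because the probe sets were sorted after their values were seen. The first pattern had the larger SDs within groups (0.67 and 0.43, against 0.14, 0.16 and 0.20). These differences therefore largely repeat the r of its own probe sets with Egr1 (0.810 and 0.741) and add little to them. The annotation used does not say which Homer1 transcripts a probe set reads.

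**Figure D5:**
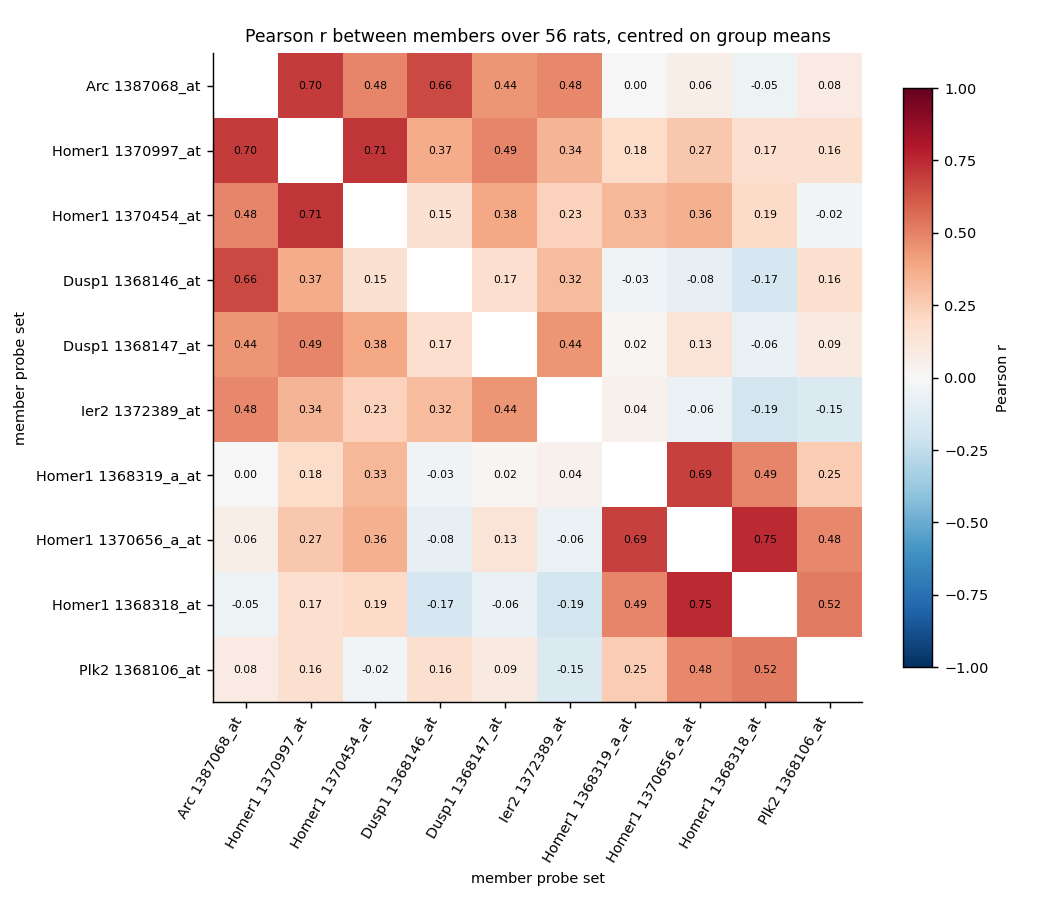
Pearson r between the 10 member probe sets over 56 rats, centred on group means (rows and columns are probe sets, colour and number give r). The order was not set by clustering. Arc, Homer1 1370997_at and 1370454_at and Dusp1 1368146_at stand at the upper left, and the other 3 Homer1 probe sets at the lower right, with Plk2 beside them. With the 2 Homer1 probe sets at the upper left, Dusp1 1368146_at has r of 0.37 and 0.15, and Dusp1 1368147_at 0.49 and 0.38.

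Plk2 went with 2 of the 3 probe sets of the second pattern. Its r was 0.517 with Homer1 1368318_at (permutation p = 0.00021, 0.0014 adjusted over 45 pairs), 0.478 with 1370656_a_at and 0.080 with Arc. With Homer1 1368319_a_at it was 0.251 (adjusted permutation p = 0.173). The scores of tissue markers moved with these signals: the medium spiny neuron score had r = 0.505 with Homer1 1368318_at (permutation p = 0.00045, adjusted p = 0.015 over 66 relations), 0.416 with 1370656_a_at and 0.441 with Plk2 (adjusted p = 0.024 each). Plk2 had r = -0.545 with the endothelial and mural score (permutation p = 0.00016, adjusted p = 0.011), and -0.427 without the 2 farthest rats. Their part in the Plk2 and Homer1 values was not tested. Between Arc and the medium spiny neuron score r was -0.04.

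Dusp1 1368146_at went with Arc (r = 0.659, rho = 0.571, permutation p = 1e-05 and 6e-05) more than with the Homer1 probe sets of the first pattern (0.371 and 0.151), a difference that was not tested. Ier2 had r = 0.481 with Arc (permutation p = 0.0016, adjusted p = 0.0054 over 45) and 0.440 with the low Dusp1 probe set.

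Over all tested probe sets with 1 symbol, the signals most like Arc between rats were those of Nr4a1 (r = 0.89), Fos (0.87), Egr2 and Tiparp (0.78 each) and Egr1 (0.76). For Dusp1 they were Fos (0.67), Arc (0.66) and Nr4a1 (0.61), and for Ier2 they were Dusp6 and Jun (0.54 each) and Npy5r (0.49). Plk2 was most like Slc30a4, a zinc transporter gene, and Nkiras1 (0.72 each) and Tac1 (0.71), the substance P precursor of medium spiny neurons. Homer1 1368318_at was most like Kctd1, Ttc19, Ppp2r2a, Tomm20 and Itpka, from 0.69 to 0.64. Among the genes most like Plk2 and Homer1 1368318_at there was thus no immediate early transcription factor gene, and these lists are descriptions over 56 rats with no test.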

How the data were processed

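Total RNA of the dorsal striatum of 56 rats, extracted from each rat separately per the labels' protocols, was labelled from 100 ng and hybridized to Affymetrix Rat230_2 arrays. The deposited values are log2 signals made by the authors with MAS5, per the submitters' processing notes; its version is not given in the sources used here. Unlogged, each array has a trimmed mean (2% off each end) of 150.042 to 150.046. Values were used as deposited, without a pseudocount. Detection calls were not used, so precision is limited by how many arrays there are.

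Of 31042 probe sets other than the 57 controls, the 18625 with a mean above the 40th percentile (4.99) were tested. limma 3.58.1 in R 4.3.3 (lmFit, eBayes, two-sided) was fitted to 8 group means of all 56 arrays, with 20 comparisons, each adjusted by Benjamini-Hochberg over all tested probe sets. The slope on Egr1, a covariate in that fit, and the differences between Homer1 probe sets were added after the values were seen. Correlations were centred on group means and tested by permutation (numpy 2.4.6, SciPy 1.17.1). Marker scores are means of signals centred over the arrays. Alternatives were other filters, quantile normalization, 16 added to the unlogged signal, a robust prior with an intensity trend, weights per array, the array set as a block, covariates, only the groups compared and leaving out each rat. The named genes were all members, Egr1, the 3 to 5 genes most like a member, and up to 5 called members of a list or, where none was called, 2 of smallest p. The members and lists were chosen with earlier results of these data known. Groups come from the labels, where rats are numbered across groups without pairing. limma p-values set a difference or slope against the variation between rats within groups, which with 1 array per rat includes that between arrays. Permutation p-values set a correlation against those of rats shuffled within groups.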

Additional observations from a re-analysis of the deposited data

Results flagged for a closer look

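Of 88 groups examined (the 10 members and Egr1 in 8 groups), 5 held a rat set apart from the other 6 by Dixon's criterion, and chance alone gives about 1 in 20. In sham rats given saline throughout, rat 53 had a Homer1 1370997_at signal of 8.51 where the nearest other rat had 6.73. The same rat had the highest Arc, Dusp1 and Egr1 signals of its group. In sham rats given both drugs, rat 30 had the lowest Homer1 1368319_a_at signal, 7.21 against 7.45 for the nearest. Plk2 held 3 of the 5: rat 15 was low at 10.1 (nearest 10.25) in lesioned rats given pramipexole alone, rat 28 high at 10.68 (nearest 10.39) in lesioned rats given saline throughout, and rat 36 high at 10.62 (nearest 10.28) in sham rats given L-dopa alone. The cause was not tested.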

How the results depend on the processing

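Every count of called members of the 20 comparisons was 0 in the main analysis and stayed 0 under the alternatives run, except for lesions. In saline-treated, saline-conditioned rats limma called 1 member, Homer1 1370656_a_at, for the lesion with an intensity trend and robust prior (0.31, adjusted p = 0.049), and from 0 to 1 when single rats were left out, 1 without rat 26, 52 or 56 (adjusted p = 0.049, 0.029 and 0.048). Over all rats the lesion count likewise ran from 0 to 1, with Homer1 1368318_at called without rat 1 or 23 (adjusted p = 0.038 and 0.039). Of the correlations with Egr1, 6 of 10 had an adjusted p under 0.05 over the 10 relations, against 3 in the 28 lesioned rats alone, where Dusp1 1368146_at had r = 0.50 (adjusted p = 0.058), and 4 to 7 when a group was left out. Arc and Homer1 1370997_at and 1370454_at passed in each of these, with r from 0.701 to 0.840. The Egr1 slope counts of 4 fell to 3 in lesioned or sham rats alone. The Arc difference with pramipexole without L-dopa ranged from 0.45 to 0.53 over 12 alternatives, and from 0.43 to 0.63 when single rats were left out (highest without rat 53). No sign changed in a called value. Of the values for single probe sets under the alternatives, 7585 kept their side of the threshold and stayed within 1 SE of the main estimate. For the correlations with Egr1 among them no limit was set on the size of the shift. A further 44 moved by more than 1 SE without being called, 24 lost their call and 7 gained one. Egr1 has 1 probe set, so the planned use of others was not run. No paired analysis was possible because rat numbers are not shared between groups.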
